A study of Mus musculus with 6 samples.

Results

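The *Hox* genes are the 39 rows of the deposited mouse table, of 46603 genes in all, whose symbol reads *Hox*, a cluster letter from a to d and a paralog number. RNA-Seq was performed on sciatic nerve at postnatal day 9 from 3 ctrl mice, which carried the conditional *Ep400* allele, and from 3 *Ep400* cko mice, which carried the same allele with a *Dhh::Cre* transgene that deletes *Ep400*, a chromatin remodeler gene, in Schwann cells (SCs). In the study these cko mice are named *Ep400ΔPNS*, and mice of both genotypes had a mixed background, given as 129SvJ/C57Bl/6J in the labels and as a cross of C3H and C57Bl/6J in the methods. The table holds 1 mean of normalised counts per gene over the 6 libraries of both genotypes together, so every level below is the authors' mean and carries no SD. Columns for single libraries were not at hand, the authors' own columns on the effect of genotype were not used, and no comparison of ctrl with cko nerves was made.

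*Hox* genes encode homeodomain transcription factors that give cells of the trunk and limbs their position along the body axis. In mammals they lie in 4 clusters, and genes with the same paralog number in different clusters descend from the same ancestral gene. Low paralog numbers sit at the 3′ end of a cluster and are switched on first and furthest towards the head, whereas high numbers sit at the 5′ end and are switched on later and closer to the tail. Cells of the adult body, fibroblasts among them, often keep the *Hox* pattern of the place where they arose. The sciatic nerve is formed by axons of lumbar and upper sacral levels and runs through the hindlimb.

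The nerve expressed most *Hox* genes, from all 4 clusters, at modest levels. Taking a mean of at least 10 normalised counts as detected, 28 of the 39 members (71.8%) were detected, beside 36.5% of all genes in the table. Those genes include non-coding ones, and the share of protein-coding genes alone was not computed, so the 2 shares are not strictly alike. Another 9 *Hox* members lay above 0 and under 10. *Hoxb1* and *Hoxd12* were at 0, where the limit of 3 reads allows a mean of up to 0.551. Together the 39 means summed to 4549, or 0.0178% of the summed means of all genes (25608535). To compare genes, each mean was divided by the length of the gene's exons in kb. On this per kb scale the detected members had a median level of 40.4, beside 90.8 for all detected genes, and 5 members (*Hoxc10*, *Hoxd8*, *Hoxc6*, *Hoxc4* and *Hoxa10*) lay above that second value. The members with the 4 highest levels held 42.4% of the summed *Hox* level per kb.

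**Figure D1:**
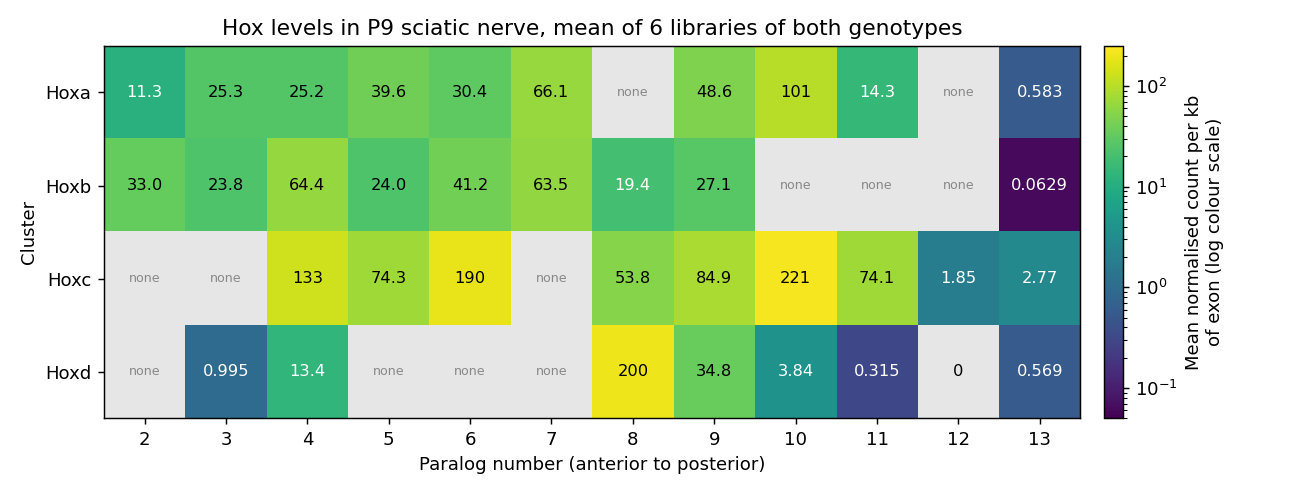
Level of *Hox* members by cluster (rows) and paralog number from 2 to 13 (columns), as the authors' mean normalised count over 6 libraries divided by kb of exon, on a log colour scale. Grey cells marked none have no gene, and grey cells marked 0 have a mean of 0. The highest level per kb is 101 in *Hoxa*, 64.4 in *Hoxb*, 221 in *Hoxc* and 200 in *Hoxd*, and no member of paralogs 12 and 13 is above 2.77.

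The *Hoxc* cluster, on the plus strand of chromosome 15, held the largest share of the *Hox* level, 47.6% of the summed level per kb. It lacks paralogs 1 to 3, and all of its 7 members from *Hoxc4* to *Hoxc11* were detected, with levels per kb of 53.8 to 221. *Hoxc10* (chr15:102966796-102971893), a gene of lumbar motor neurons and hindlimb, had the highest level per kb of all members, 221, at a mean of 423. *Hoxc6*, known from forelimb and upper thoracic levels, followed within the cluster with a level per kb of 190 and had the higher mean, 457. *Hoxc4* (chr15:103018934-103036852), the most anterior gene of the cluster, had a level per kb of 133 at a mean of 342. *Hoxc5*, also of neck and forelimb levels, had a level per kb of 74.3 at a mean of 229, and *Hoxc9*, which sets thoracic identity of motor neurons, had one of 84.9 at a mean of 206. *Hoxc8*, the gene with the lowest detected level of the cluster, had 53.8 per kb at a mean of 152. *Hoxc11* (chr15:102954427-102957708), the last detected gene towards the 5′ end, had a level per kb of 74.1 at a mean of 150, which was 2.99-fold below *Hoxc10*. Its neighbour *Hoxc12* was 40.1-fold lower still, with a level of 1.85 per kb at a mean of 1.905, and *Hoxc13*, a hair follicle gene, had a level of 2.77 per kb at a mean of 6.83. Thus the fall at the 5′ end of this cluster lay between paralogs 11 and 12.

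In the *Hoxa* cluster, on the minus strand of chromosome 6, levels per kb were highest at *Hoxa10* and fell off beyond it. This cluster held 21.04% of the summed level per kb, and 10 of its 11 members were detected. *Hoxa2* had 11.3 per kb at a mean of 20.1, *Hoxa3*, the highest of paralog number 3, had 25.3 at a mean of 152, and *Hoxa4* had 25.2 at a mean of 40.1. *Hoxa5*, which is needed for lung and neck structures, had 39.6 per kb at a mean of 74.3, *Hoxa6* had 30.4 at a mean of 26.5, and *Hoxa7*, the highest of paralog number 7, had 66.1 at a mean of 190. *Hoxa9*, best known from blood progenitors, had 48.6 per kb at a mean of 271. *Hoxa10* (chr6:52231197-52240854), a gene of lumbar level, hindlimb and uterus, was highest in the cluster with 101 per kb at a mean of 329. Next to it, *Hoxa11* (chr6:52242106-52245810) was 7.02-fold lower, at 14.3 per kb and a mean of 32.7, and was the last detected member. *Hoxa13*, a gene of digits and hindgut, was 24.5-fold below *Hoxa11*, at 0.583 per kb and a mean of 1.44.

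Members of the *Hoxb* cluster, on the plus strand of chromosome 11, showed no steep step from *Hoxb2* to *Hoxb9*, as neighbours there differed by at most 3.27-fold per kb. The cluster held 16.9% of the summed level per kb, with 8 of 10 members detected at 19.4 to 64.4 per kb. *Hoxb1*, a gene of hindbrain rhombomere patterning, was at 0, and *Hoxb2* (chr11:96350525-96354012) was the first detected member at the 3′ end and the highest of paralog number 2, with 33.0 per kb at a mean of 115. *Hoxb4* (chr11:96318267-96321638), studied for its part in blood stem cells, was highest with 64.4 per kb at a mean of 165, and *Hoxb7* was close to it with 63.5 at a mean of 98.0. *Hoxb3*, *Hoxb5*, *Hoxb6* and *Hoxb8* had means of 101, 66.8, 80.9 and 51.2. *Hoxb9* (chr11:96271457-96276595) was the last detected member, with 27.1 per kb at a mean of 69.8. *Hoxb13*, a gene of prostate and tail end, had a mean of 0.139, which is 1 read in 1 library. In mouse this cluster has no genes of paralog numbers 10 to 12.

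The *Hoxd* cluster, on the plus strand of chromosome 2, held the smallest share, 14.5% of the summed level per kb, and 3 of its 9 members were detected. Among members whose exons overlap no other gene, however, it held 20.3% and *Hoxa* held the smallest share, 14.7%. This filter kept 4 of 11 *Hoxa* members and 5 of 9 *Hoxd* members. It left out *Hoxa9*, at a mean of 271, for an overlap of 1.52% of its exon bases, but kept *Hoxd8*. The change of rank therefore reflects which members were left out. Most of the level of *Hoxd* came from 1 gene. *Hoxd8* (chr2:74704615-74707933), a gene of the trunk, had the highest mean of all members, 550, and a level of 200 per kb, below *Hoxc10* by a factor of 1.11. *Hoxd4* (chr2:74711929-74729160), the first detected member at the 3′ end, was 14.9-fold lower than *Hoxd8*, at 13.4 per kb and a mean of 39.6. On the other side *Hoxd9* (chr2:74697727-74700208) was 5.76-fold lower, at 34.8 per kb and a mean of 74.3, and was the last detected member. *Hoxd10*, which acts with *Hoxa10* and *Hoxc10* in lumbar motor neurons and hindlimb, was 9.05-fold below *Hoxd9*, at 3.84 per kb and a mean of 6.98. *Hoxd11*, with 8 reads in all, was a further 12.2-fold lower per kb of exon. Its exons span 4.21 kb, beside 1.82 kb for *Hoxd10*. Per kb of coding sequence *Hoxd11* had 1.32 and *Hoxd10* 6.85, and neither gene was detected. The remaining means were 0.278 for *Hoxd1*, 4.17 for *Hoxd3*, 1.33 for *Hoxd11* and 1.41 for *Hoxd13*, a gene of digits and genitals.

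**Figure D2:**
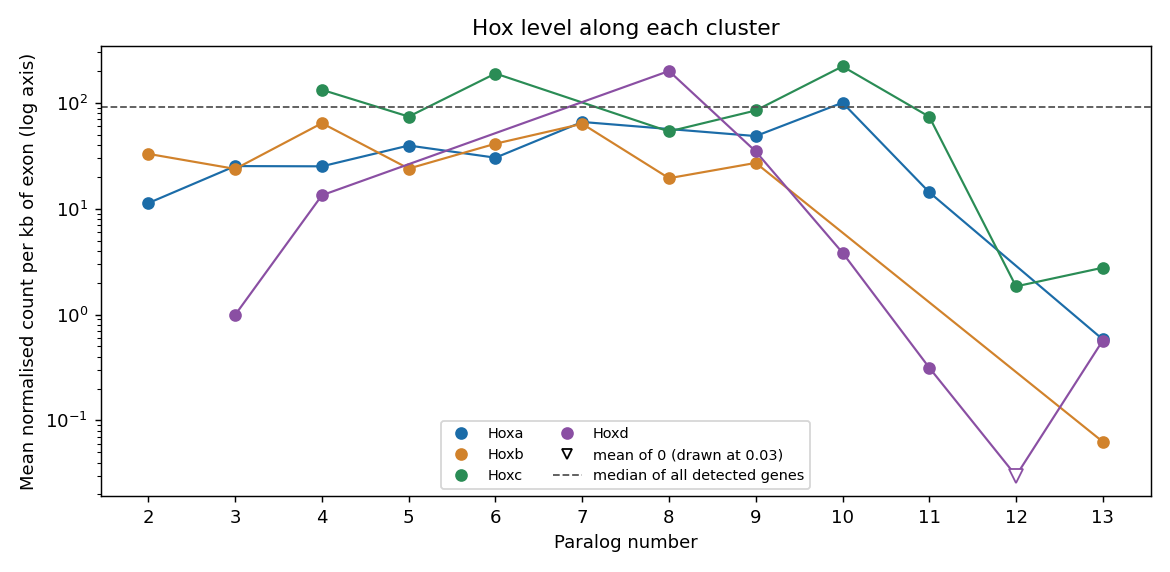
Level of *Hox* members along each cluster, with the paralog number from 2 to 13 on the x axis and the authors' mean normalised count per kb of exon on a log y axis. The 4 colours are the clusters, and the dashed line is the median of all detected genes (90.8). *Hoxd* falls after paralog 8, *Hoxa* after 10 and *Hoxc* after 11, and an open triangle marks *Hoxd12*, at 0.

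The stretch of detected genes therefore ended at different paralog numbers, 9 in *Hoxb* and *Hoxd* and 11 in *Hoxa* and *Hoxc*. These 5′ ends moved with the minimum mean. At a minimum of 50 *Hoxa* ended at 10, and at a minimum of 1 *Hoxa*, *Hoxc* and *Hoxd* reached 13, whereas *Hoxb* ended at 9 under both. The step was seen well within the *Hoxd* cluster, where *Hoxd8* lay 52.1-fold above *Hoxd10*, while *Hoxc10* lay 57.6-fold above its paralog *Hoxd10*. The promoters of *Hoxd8* and *Hoxd10* are shown as the sequences on both sides of this step. Each has 300 bases on the plus strand, 250 before and 50 after the RefSeq start site on GRCm38.p6. *Hoxd8* is chr2:74704365-74704664 and *Hoxd10* is chr2:74691641-74691940. Capitals mark matches, on either strand, to CCAAT (the CCAAT box) and AGGTCA (the half-site of nuclear receptors), which are matches of letters only.
Hoxd8: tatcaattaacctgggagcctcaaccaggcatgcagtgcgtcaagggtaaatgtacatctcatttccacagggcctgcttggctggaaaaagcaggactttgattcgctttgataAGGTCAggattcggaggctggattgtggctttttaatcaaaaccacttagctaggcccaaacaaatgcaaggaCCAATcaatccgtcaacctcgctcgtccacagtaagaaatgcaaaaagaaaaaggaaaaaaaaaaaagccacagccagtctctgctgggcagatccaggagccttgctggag
Hoxd10: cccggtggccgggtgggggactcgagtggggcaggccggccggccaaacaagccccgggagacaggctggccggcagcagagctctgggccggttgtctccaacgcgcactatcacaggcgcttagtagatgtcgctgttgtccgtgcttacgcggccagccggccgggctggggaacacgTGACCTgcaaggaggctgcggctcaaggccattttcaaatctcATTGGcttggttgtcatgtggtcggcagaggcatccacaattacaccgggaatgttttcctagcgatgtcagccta

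Both promoters held both motifs. The *Hoxd8* promoter had 6 CpG dinucleotides and 46.7% G and C, whereas the *Hoxd10* promoter, of the gene with the lower level, had 22 and 62.7%. The promoter of *Hoxd9*, which lies between them in place and level, had neither motif, 20 CpG dinucleotides and 68.3% G and C. CpG number thus rose as levels fell from *Hoxd8* to *Hoxd10*, whereas motifs and G and C content did not follow the levels. The part of promoter sequence in the levels was not tested. Promoters of 22 of the 39 members were in the RefSeq table, and those not matched included *Hoxa4*, *Hoxb2*, *Hoxb3*, *Hoxb5*, *Hoxb6*, *Hoxb7*, *Hoxb9*, *Hoxb13* and the *Hoxc* genes other than *Hoxc4*. Of the 22 members with a promoter, 15 (68.2%) had a CCAAT match, beside 37.4% of all 32851 promoters. An AGGTCA match was found in 7 (31.8%), beside 16.3%. Matches to TTTATG, the letters bound by Cdx proteins, were found in 5 members (22.7%, beside 11.9% of all promoters), to TGATTNAT, a site of Pbx and Hox pairs, in 2 (9.09%, beside 3.22%), and to TATAAA, the TATA box, in 4 (18.2%, beside 13.6%). Searches covered both strands, and each motif was counted whether or not it overlapped another. Median CpG number was 14.5 over the members' 24 promoters and 7 over all. Members were counted by gene and the background by single promoter, without matching for CpG number, so the shares are not strictly alike.

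Grouped into bands of paralog numbers, the largest share lay in paralogs 6 to 8. The bands differ in width, so this order depends on how the numbers were grouped. Number 7, within that band, held 7.38%. Paralogs 6 to 8 held 37.8% of the summed level per kb, and all of their 8 members were detected. Paralogs 9 and 10 held 29.7% with 6 of 7 members detected, and paralogs 1 to 5 held 27.1% with 12 of 15 detected. Paralogs 11 to 13 held 5.38%, with *Hoxa11* and *Hoxc11* as the only detected members of 9. Of single numbers, paralog 10 held most, 18.6%, followed by 8 with 15.6%, 6 with 14.9% and 4 with 13.4%. This order depended on the length used, as per kb of coding sequence paralog 8 held most (17.2%) and paralog 10 held 12.8%, without division by length both were close (16.6% and 16.7%), and among members without exon overlap, which leaves out *Hoxc10*, paralog 8 held 23.5% and paralog 10 8.65%. In each of these a single gene held most of the level per kb of exon, as *Hoxc10* gave 68.0% of the level of paralog 10, *Hoxd8* 73.2% of 8, *Hoxc6* 72.6% of 6 and *Hoxc4* 56.4% of 4. *Hoxc* genes were the highest of their paralog number for 4, 5, 6, 9, 10, 11, 12 and 13 on the per kb scale, but for paralog 9 *Hoxa9* was above *Hoxc9* without division by length (means of 271 and 206) and per kb of coding sequence (334 and 264).

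For 16 members part of the exons lies within an exon of another gene. Libraries were made with a stranded kit, but the sources used here do not say if the counting kept the strand, so that levels of genes with partners on the opposite strand are uncertain. *Hoxb3* shared 52.9% and *Hoxb2* 27.3% of their exon bases with *Hoxb3os*, an antisense RNA whose level per kb of 89.0 was above theirs of 23.8 and 33.0. *Hoxa11* shared 35.0% with *Hoxa11os* (mean 11.1) and *Hoxa7* 20.4% with *Hoxaas3* (mean 11.2). On the same strand, *Hoxd3* and *Hoxd4* shared exon bases with each other and with the gene model *Gm28230* over 62.3% and 52.3% of their exons, and *Hoxc5* and *Hoxc10* shared 166 bases. Reads within such stretches may be left uncounted for both genes.

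Of 16 non-coding transcripts of the clusters, 6 were detected. The highest means were those of *Hoxb3os* with 374, *Hoxd3os1* with 54.9 and *Hotair*, a long RNA of the *Hoxc* cluster known from posterior and distal skin, with 45.0. *Hotairm1*, at the 3′ end of the *Hoxa* cluster, had a mean of 16.0. *Hottip*, which is transcribed beyond *Hoxa13* at the 5′ end of that cluster, and *Haglr* were at 0. The hairpin rows of the clusters' microRNAs had means of 0 to 2.80, but libraries of mRNA do not capture mature microRNAs, so these rows do not measure them.

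The microRNAs of the clusters are shown because several *Hox* messages carry sites for them. Capitals mark the seed, bases 2 to 8, and the sequences are from RefSeq (GRCm38.p6). The miR-10 pair lies next to *Hoxb4* (chr11:96317186-96317208) and *Hoxd4* (chr2:74726074-74726096) and shares a seed. The miR-196 family lies beside paralog 9, with miR-196a encoded in *Hoxb* (chr11:96265187-96265208) and *Hoxc* (chr15:102973365-102973386) and miR-196b in *Hoxa* (chr6:52230129-52230150, minus strand), and shares another.
miR-10a-5p: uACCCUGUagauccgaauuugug
miR-10b-5p: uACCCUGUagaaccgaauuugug
miR-196a-5p: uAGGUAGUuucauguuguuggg
miR-196b-5p: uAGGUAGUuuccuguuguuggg

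Sites complementary to the miR-196 seed (ACTACCT in the message) were found in the 3′ UTRs of 8 of the 39 members (20.5%), beside 5.26% of 21674 mouse genes. These were *Hoxa4*, *Hoxa5*, *Hoxa7*, *Hoxa9*, *Hoxb1*, *Hoxb6*, *Hoxb7* and *Hoxc8*, with 4 sites in *Hoxa7* and 2 in *Hoxc8*. Among genes whose 3′ UTR was within 10% of the same length, 2.00% to 4.89% had such a site. Of these 8 members, 7 were detected, at means of 40.1 to 271, and *Hoxb1* was at 0. Seed sites for miR-10 (ACAGGGT) were found in 4 members (10.3%), among them *Hoxa3* and *Hoxb3*, beside 10.6% of all genes.

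The *Hoxb8* message carries a site that pairs with miR-196a over nearly its whole length and is known to be cut by this microRNA in mouse. Of 22 bases 21 were complementary and the other was a G-U wobble pair within the seed, so that *Hoxb8* is not among the 8 genes with a perfect seed site. The next most complementary stretch of any member, in *Hoxd8*, matched at 15 of 22 bases. Capitals mark bases complementary to miR-196a-5p, and the stretches lie at chr11:96284888-96284909 and chr2:74707120-74707141 of mm10, on the plus strand.
Hoxb8: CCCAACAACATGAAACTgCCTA
Hoxd8: CtCAACAACATaAActTcCtaA
*Hoxb8* had a lower level per kb, 19.4, than its paralogs *Hoxc8* (53.8) and *Hoxd8* (200) and its neighbours *Hoxb7* (63.5) and *Hoxb9* (27.1). *Hoxb3* (23.8) and *Hoxb5* (24.0) of the same cluster were close to it. The part of the microRNA in the level of *Hoxb8* was not tested.

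Values of single libraries could be had for part of the members. A mean of low counts is a sum of whole reads, each worth a fixed step for its library, and the 6 steps could be read from the table. All 11370 genes with means above 0 and up to 4 gave exactly 1 set of whole reads. In this way 21 of the 22 members with a mean above 0 and up to 100 were split into the reads of 6 libraries, here named L1 to L6 in the order of falling size factor (1.201 to 0.908). *Hoxb7* gave more than 1 set, and the 15 members with higher means were not split. The libraries carry no label of genotype and none was inferred, so that their spread mixes differences between mice with any between genotypes. Of the 12 split members with a mean of at least 10, the highest library was 1.65 to 3.76 times the lowest (median 2.30). In 10 of these 12 the exact Poisson 95% intervals of the highest and lowest library lay apart, and in the other 2, *Hoxa6* among them, they overlapped. Such intervals cover counting error only. The highest and lowest libraries were picked from the same counts, which favours intervals that lie apart. The share among all genes of like mean was not computed, so the count is not a trait of *Hox* genes.

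*Hoxb8* varied most among these 12. Its normalised counts were 19.99, 33.9, 55.9, 49.8, 75.2 and 72.7 in L1 to L6, with L1 lowest and L5 highest. *Hoxb9* had 43.3, 43.0, 42.5, 74.7, 101 and 115, so that 3 libraries were alike and low and the others higher. *Hoxa11* had 21.7, 22.9, 47.6, 41.5, 41.9 and 20.9, low in L1, L2 and L6.

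*Hoxd4* had 25.8, 33.0, 26.9, 49.8, 66.6 and 35.2 normalised counts in L1 to L6, highest in L5. *Hoxd9* had 74.9, 68.7, 87.0, 54.96, 103 and 57.3, again highest in L5. *Hoxb5* had 59.96, 77.8, 73.5, 37.3, 87.0 and 65.0, with L4 lowest. *Hoxb6*, with the smallest ratio of highest to lowest, had 66.6, 92.5, 74.6, 91.3, 99.9 and 60.6. The order of libraries thus differed between members.

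Among the split *Hoxa* genes, *Hoxa5* had 46.6, 85.2, 71.5, 83.0, 89.2 and 70.5 normalised counts in L1 to L6. *Hoxa4* had 28.3, 53.1, 37.3, 40.4, 36.5 and 45.1. *Hoxa2* ranged from 10.1 in L2 to 27.9 in L5 (median 20.6) and *Hoxa6* from 14.5 in L3 to 33.9 in L2 (median 28.8). L5 was the highest library for 7 of the 12 members and L1 the lowest for 4. Over all 21 split members the summed normalised count ran from 476 in L1 to 801 in L5, a ratio of 1.68, which fell to 1.36 without either L1 or L5. Neither these counts of libraries nor this ratio were computed over all genes of like mean, so they are not traits of *Hox* genes.

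**Figure D3:**
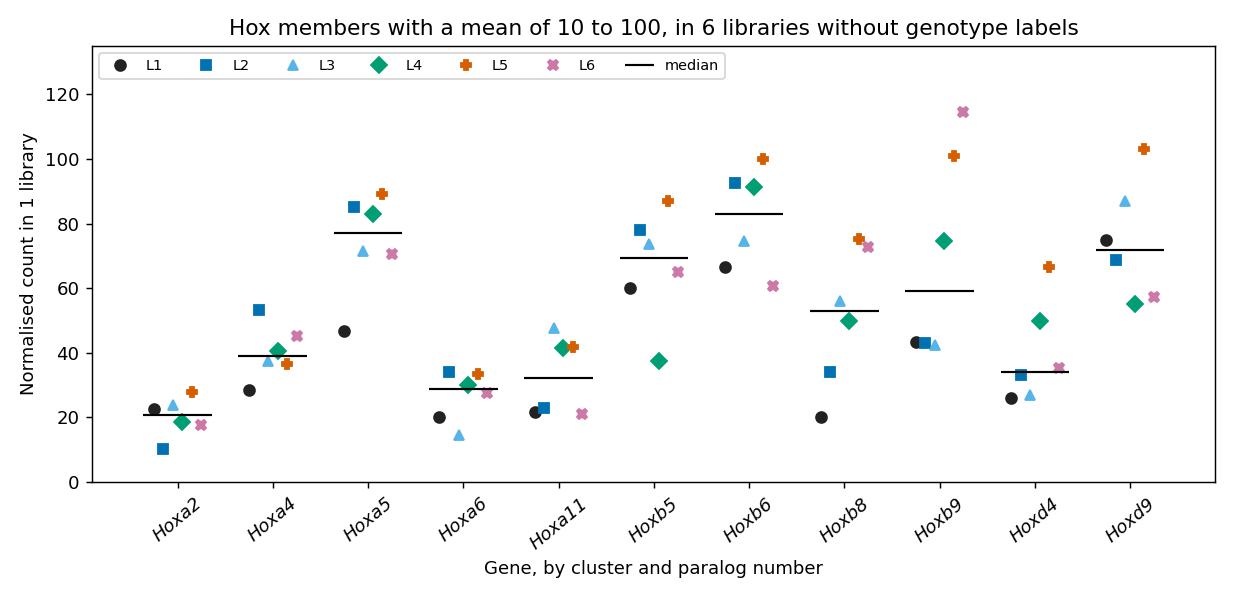
Normalised counts of 11 of the 12 split *Hox* members with a mean of at least 10 (x axis) in each of 6 libraries without genotype labels (symbols), with the median as a bar; the y axis is linear from 0. The ratio of highest to lowest library is largest for *Hoxb8* (3.76) and smallest for *Hoxb6* (1.65). L5 is highest for 7 members, a count that was not set against all genes.

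The 9 *Hox* members with a mean above 0 and under 10 had 146 reads in all, and these were not spread evenly over the unlabelled libraries. L6 held 43 of them and L1 30, whereas L2, L3, L4 and L5 held 17, 20, 11 and 25. Among them are the genes of paralog number 13, which mark the tail end of the axis, the digits and the genital bud. They were singled out after their reads were seen. Their summed normalised count was 27.5 in L6 and 3.11 to 9.99 in the other libraries, from 25 reads in L6 and 3 to 12 in the others. Of the 8 reads of *Hoxa13*, 5 were in L6, and of the 8 reads of *Hoxd13*, 6 were in L6. For both genes, however, the Poisson intervals of the highest and lowest library overlapped. *Hoxc13* had 10, 5, 0, 7, 5 and 14 reads in L1 to L6, and its intervals of the highest and lowest library, L6 and L3, lay apart. The only read of *Hoxb13* was in L1, and 1 read says little for or against a pattern. With so few reads, and libraries picked from the same counts, a pattern shared by the genes of paralog number 13 is not shown. *Hoxd10* had 8, 7, 11, 0, 7 and 9. The libraries with the most reads of these genes, L6 and L1, had the smallest and the largest size factor.

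**Figure D4:**
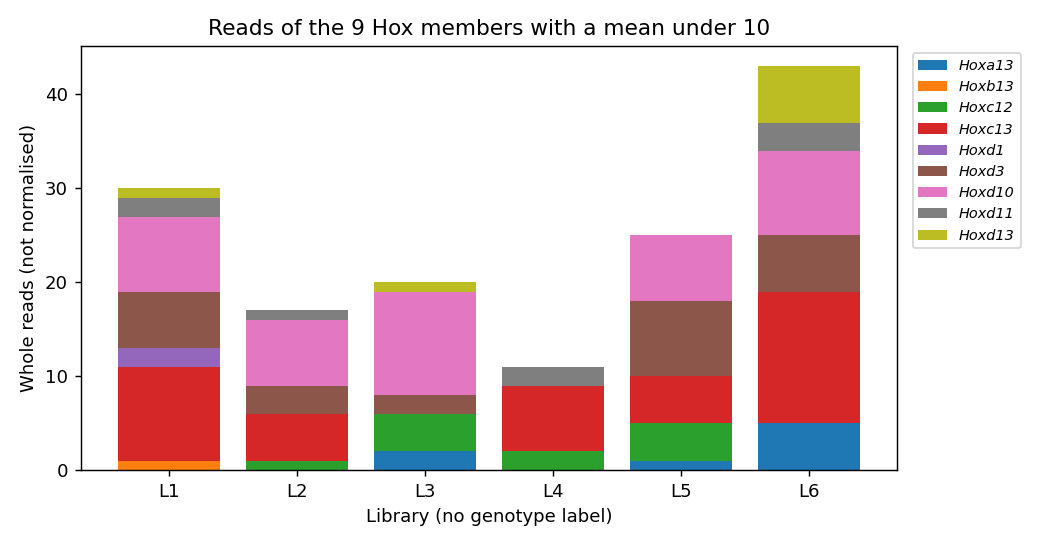
Whole reads, not normalised, of the 9 *Hox* members with a mean above 0 and under 10 (colours) in the 6 libraries without genotype labels (x axis), as stacked bars from 0. The bars run from 11 reads in L4 to 43 in L6.

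Lists of related genes place these levels among the partners and regulators of *Hox* genes. TALE homeodomain proteins bind DNA together with Hox proteins, and all 9 of their genes were detected. Among them *Pbx2* had a level per kb of 333 and *Pknox1* one of 110, and the list median of 62.8 compares with 25.3 over all 39 *Hox* members. Of 12 genes that set *Hox* expression in the embryo through Cdx proteins and retinoic acid, 7 were detected. The retinoic acid receptor genes *Rara* and *Rarg* had levels per kb of 454 and 389, and *Aldh1a3*, which makes retinoic acid, had 103. *Cdx1* and *Cdx4*, which act in the embryo's tail bud, were at 0, and *Cdx2* had a mean of 1.46.

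Of 6 factors that mark limb position and polarity, 4 were detected, and their list median was 5.58 per kb. *Pitx1*, a hindlimb gene, had a mean of 75.3 and a level per kb of 28.4. *Tbx4*, also a hindlimb gene, had a level per kb of 5.60 at a mean of 19.0, beside 1.02 at a mean of 4.79 for *Tbx5*, the forelimb gene. *Isl1*, also on this list, was as low as *Tbx5*, with a level per kb of 1.21 at a mean of 4.78. Of its 31 reads, 17 were in L1. As *Isl1* was not detected, a hindlimb pattern shared over the list is not shown, and none was tested. *En1*, which marks ventral limb ectoderm, had a level per kb of 7.28, and *Lmx1b*, which sets dorsal limb pattern, had 5.57. In single libraries *Tbx4* ranged from 10.1 to 31.1 normalised counts (median 19.0) and *Tbx5* from 1.04 to 9.91 (median 4.42), neither divided by length.

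Of 11 genes that flank the clusters 7 were detected, and *Calcoco1*, *Mtx2* and *Hibadh* had the highest levels per kb, 304, 113 and 63.1. The even-skipped genes *Evx1* and *Evx2*, which lie beyond *Hoxa13* and *Hoxd13* and act in the tail bud, had means of 0.537 and 1.11.

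**Figure D5:**
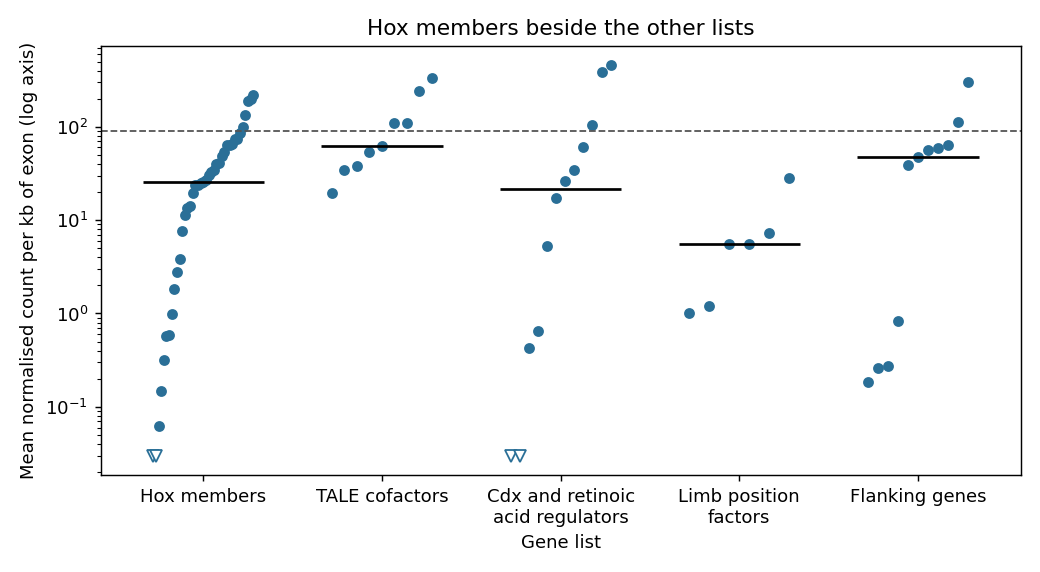
Level per kb of the *Hox* members and of genes of 4 other lists, 1 point per gene, as the authors' mean normalised count per kb of exon on a log axis; bars are list medians, open triangles are genes at 0, and the dashed line is the median of all detected genes (90.8). The median is 25.3 for *Hox* members, 62.8 for TALE cofactors and 5.58 for limb position factors.

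RNA of a whole nerve holds several cell types, and the cell type that carried each *Hox* transcript cannot be told from it, nor can fewer cells of a type be told apart from less RNA per cell. All 8 SC markers were detected, among them *Pmp22*, which encodes a protein of peripheral myelin, at a mean of 290264. All 5 fibroblast markers were detected, with *Col1a1* at 649784, as were all 5 endothelial and pericyte markers (highest *Rgs5*, 7142), all 4 macrophage markers (highest *Csf1r*, 2394) and all 4 skeletal muscle markers (highest *Ttn*, 29176). Of 5 neuron markers 3 were detected, with *Tubb3* at 447, *Prph* at 118 and *Snap25* at 41.0, and *Rbfox3*, which marks neuronal nuclei, was at 4.81. The part of these cell types in the *Hox* levels was not tested.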

How the data were processed

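Total RNA was extracted from the nerves with RNeasy and made into libraries with a stranded mRNA kit. Per the submitters' processing notes, reads were aligned to mm10 with STAR 2.5.1, counted with HTSeq and compared with DESeq2 (1.10.1, listed beside R). Ensembl release 82 is named in the table and 85 in the methods. The deposited signal column is the mean that the authors took over all 6 libraries of counts divided by size factors. Their other columns (fold change, standard error, test statistic, p-values) hold their own comparison and were not used, so no test was made. The table gives no total of counted reads per library, and the methods give only a rounded number of sequenced reads. The planned count model was therefore not run. The means sum to 25608535.

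Members and lists were chosen with earlier results of these data known. A mean of at least 10 counted as detected. Described singly are the highest member of each cluster and paralog number, the last detected member at each cluster end, and the highest 3 genes of each list, with other members added after their values were seen. Some genes that this rule takes are not reported here. Exon and coding lengths came from GENCODE M21, which matched 46005 IDs. Means of up to 100 (other lists 60) were split into whole reads between 0.1 and 3 times the mean, widened by 3 reads. Tested on simulated data, 170 of 170 means of 1 to 40 were recovered, and of 30 means of 40 to 100, 23 were recovered and 7 gave several sets. For 3′ UTRs, the transcript with the longest coding sequence was taken. Alternatives were other minimum means, no or coding length, members without overlap, leaving out a library and a smaller largest mean. Scripts ran in Python 3.11.15 (matplotlib 3.10.9, numpy 2.4.6, scipy 1.17.1, pandas 2.3.3).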

Additional observations from a re-analysis of the deposited data

How the results depend on the processing

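*Hoxc* held the largest share of the summed *Hox* level under every alternative run. Without division by length the shares were 25.4% for *Hoxa*, 43.3% for *Hoxc*, and 30.1%, 35.3%, 30.3% and 4.30% for paralogs 1 to 5, 6 to 8, 9 and 10, and 11 to 13. Per kb of coding sequence they were 21.7% for *Hoxa*, 17.3% for *Hoxb*, 46.5% for *Hoxc*, and 30.1%, 38.8%, 27.1% and 3.99% for the same paralogs. With the 23 members whose exons overlap no other gene's, *Hoxa* held 14.7%, *Hoxb* 18.6%, *Hoxc* 46.5% and *Hoxd* 20.3%, and the paralogs 20.4%, 51.5%, 21.3% and 6.87%. Without division by length and per coding kb *Hoxc6* took the place of *Hoxc10* as the highest *Hoxc* gene, and per coding kb *Hoxa9* that of *Hoxa10*. Leaving out overlapping members takes out *Hoxc10* itself, and *Hoxc6* was the highest of those left. Without overlapping members *Hoxd* also ranked above *Hoxa* and *Hoxb*, where it ranked last otherwise. That setting left 4 *Hoxa*, 7 *Hoxb* and 5 *Hoxd* members, so these ranks rest on unlike parts of the clusters. The members counted as detected were 35 at a minimum mean of 1, 22 at 50 and 37 above 0. The ratio of the highest to the lowest library over the split members lay between 1.36 and 1.68 when each library was left out, and was 1.55 for members with a mean of up to 40. No paired analysis was possible because the table has no columns for single libraries and the libraries split from its means carry no replicate number. Depth limits the members with means under 10, which rest on 146 reads in all.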

Other observations

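*Hoxb9* fell into 2 sets of libraries, at 42.5 to 43.3 normalised counts in L1 to L3 and at 74.7 to 115 in L4 to L6. *Hoxa11* fell into 2 others, at 20.9 to 22.9 in L1, L2 and L6 and at 41.5 to 47.6 in L3 to L5. *Lmx1b*, a factor of dorsal limb pattern, was highest in L6 with 50.7 and lay between 15.5 and 29.1 in the other libraries. *Cyp26c1*, which breaks down retinoic acid, had 29 of its 54 reads in L3. *Cdx2* had 5 reads each in L1 and L2 and none in the other libraries. These genes were chosen after their values were seen, and no cause of these patterns was tested.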
